A study of Serinus canaria and Ploceus bicolor and Uraeginthus cyanocephalus with 155 samples.

Results

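The molecular layer of the cerebellum was compared with HVC in breeding canaries (Serinus canaria) that had received no testosterone. The comparison rests on 24 of the 155 arrays of the series, 12 of each tissue, and each tissue was sampled from 6 singing males and 6 non-singing females. All of these birds were adults kept on long days and recorded as breeding. A further 24 arrays of the same 2 tissues came from non-breeding canaries on short days, 6 males and 6 females per tissue, none of which sang or was treated. The entopallium, a visual area of the forebrain, was available from 12 breeding birds and from 11 non-breeding birds of the same kinds. Each array held RNA of 1 tissue from 1 bird. The paper describes dissection from frozen sections for HVC and the entopallium, and it does not describe the cerebellum samples. In the breeding birds every male sang and no female did, so sex and singing cannot be told apart. The cerebellum labels carry no ring numbers, so it is not known whether a cerebellum array and an HVC array came from the same bird. HVC and entopallium labels carry the same numbers in breeding females and share numbers in non-breeding birds. By these labels the 2 areas came from the same birds there, and the fits did not pair them.

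HVC is a sensorimotor nucleus of the songbird pallium that drives learned song, and in canaries it is larger in males and changes with season and with sex hormones. The molecular layer is the outer layer of the cerebellar cortex, where the parallel fibres of granule cells meet the dendrites of Purkinje cells among scattered interneurons and glial processes. Because most granule and Purkinje cell bodies lie below this layer, the RNA of a dissected molecular layer comes from few cell bodies, from processes and from whatever neighbouring tissue was taken with it. The cerebellum takes part in motor timing and is not a part of the song control system in the narrow sense. In such tissue samples, fewer cells of a type and less RNA per cell cannot be told apart.

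Expression was measured on an exon array of zebra finch probes and given as log2 levels of 26061 transcripts. None of the transcript identifiers could be paired with a gene name in the tables used here (0 of 17915 reference genes matched), so neither the cerebellar and pallial marker genes nor gene functions could be looked up, and the labelled tissues could not be checked against markers. The results below are therefore given for transcripts, and several transcripts can belong to 1 gene. A transcript was called where the Benjamini-Hochberg adjusted p of limma was under 0.05 and the difference tested was 0.5 or more in size on the log2 scale, also where that was a difference between sexes, seasons or tissue differences. Tissue differences are cerebellum minus HVC unless another pair is named.

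In breeding canaries, 7121 of 26061 transcripts (27.3%) were called, of which 3366 (12.9% of all transcripts) were higher and 3755 (14.4%) were lower in the cerebellum than in HVC. Most of these differences were small. Of the called transcripts 70.5% lay between 0.5 and 1 on the log2 scale, and their median absolute difference was 0.77. A difference of at least 2 was found for 398 transcripts (1.53%), 157 higher and 241 lower in the cerebellum. Among these, 9 of the higher and 21 of the lower transcripts passed 4. The 12 cerebellum levels did not overlap the 12 HVC levels for 6950 transcripts (26.7%), which included 5340 of the 7121 called. With the adjusted p as the only criterion, 19249 transcripts (73.9%) passed, 10684 of them higher in the cerebellum, so the fold minimum and not the p-value set most of the count. When every array was scaled to the same total intensity, the median difference of all transcripts shifted by 0.11, to 0.17 compared with 0.05 as deposited, and 62.7% of the called transcripts were then higher in the cerebellum, compared with 47.3% as deposited. The scaling moves all tissue differences and their median by the same amount, so the split relative to that median was nearly fixed in advance. It was 2865 higher and 4265 lower after scaling and 2858 higher and 4277 lower as deposited. This scaling adds 1 constant to all levels of an array. Because its shift of 0.11 was smaller than the fold minimum of 0.5, it could not turn the direction of a called transcript. Quantile normalisation, which shifts levels by different amounts, turned none of the 7121. The arrays of the 2 tissues differed by 0.214 at the 1st percentile and by 0.006 at the median, both under the fold minimum. Reversals were therefore unlikely in advance, and no conclusion is drawn from their absence.

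The transcript that was higher in the cerebellum by the widest margin was XM_002187042. Its log2 level ranged between 12.10 and 12.44 (median 12.27) in the 12 cerebellum arrays, against 5.78 to 6.31 (median 6.09) in the 12 HVC arrays. The lowest cerebellum array was far above the highest HVC array, and the difference was 6.21 ± 0.06 (SE), or 73.8-fold on the array scale (limma, adjusted p = 3.57e-31). It was 6.21 in males and 6.20 in females. The entopallium levels of breeding birds, between 6.22 and 6.65, overlapped the upper HVC levels and were far from those of the cerebellum.

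XR_054907, a predicted non-coding transcript by its prefix, had levels of 9.20 to 10.39 (median 9.71) in the cerebellum and 3.66 to 4.59 (median 4.37) in HVC. All cerebellum arrays were above all HVC arrays, by 5.47 ± 0.12 on average (SE, adjusted p = 3.71e-23). The HVC levels were near the low end of the array, where the 1st percentile of HVC arrays lay between 2.76 and 2.85, so the ratio of 44.2-fold is a ratio of array signals and may not equal that of the RNA. Breeding entopallium levels ranged between 4.06 and 4.77 and overlapped those of HVC.

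The largest negative difference was that of XM_002193873, with levels of 5.40 to 6.25 (median 5.84) in the cerebellum and of 10.83 to 11.54 (median 11.29) in HVC. Every cerebellum array was below every HVC array, and the difference was -5.46 ± 0.09 (SE, adjusted p = 3.41e-26). In the breeding entopallium it ranged between 10.95 and 11.41, within the range of HVC. This transcript was thus high on every array of both pallial areas and low on every cerebellum array.

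ENSTGUT00000008249 had cerebellum levels of 5.49 to 6.22 (median 5.71) and HVC levels of 10.74 to 11.61 (median 10.99). The tissues again did not overlap, and the difference of -5.32 ± 0.09 (SE, adjusted p = 8.77e-26) was of similar size, but the pattern over the 3 tissues was another. In the entopallium the level was 6.50 to 7.82 (median 7.25), far below HVC and above the cerebellum with no overlap on either side. HVC exceeded the entopallium by 3.84 ± 0.12 (SE, adjusted p = 2.79e-19), and the cerebellum minus entopallium difference was -1.48 ± 0.11 (SE, adjusted p = 4.72e-12). These 2 comparisons share arrays with that of cerebellum and HVC and are given side by side with it only.

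**Figure D1:**
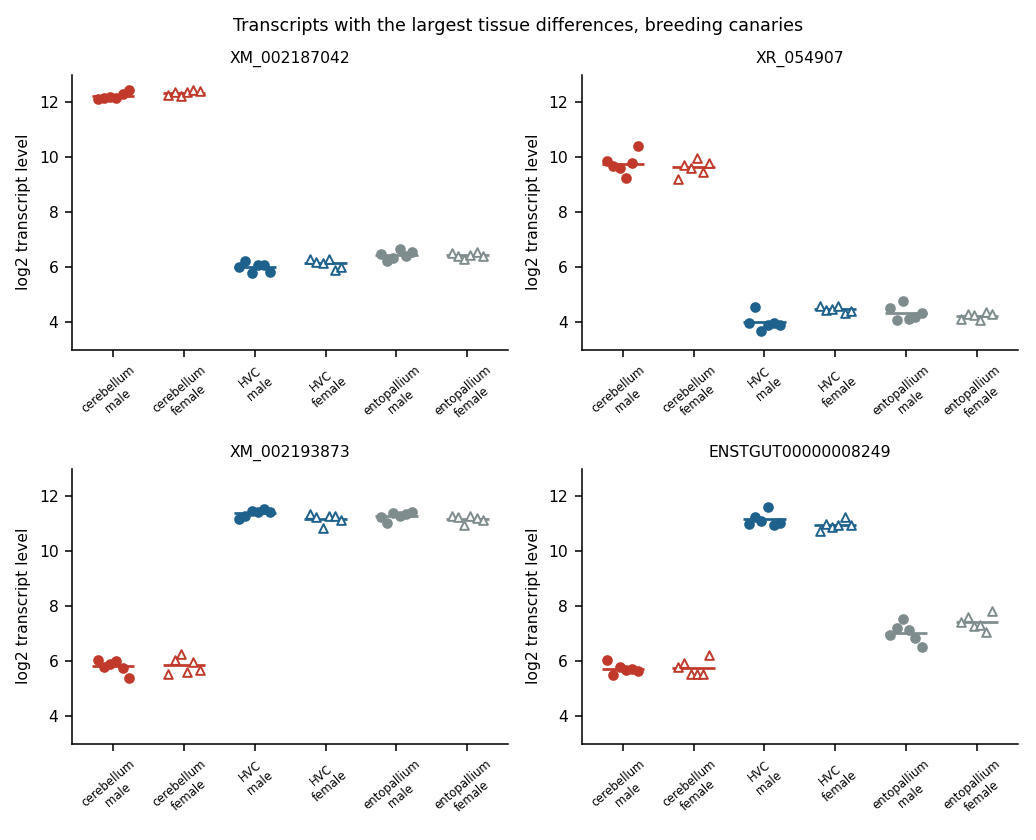
Log2 levels (y axis) of the 4 transcripts with the largest tissue differences in breeding canaries, by tissue and sex (x axis). Each point is 1 array (filled circles males, open triangles females, 6 per group) and each bar a group mean. Cerebellum points are separate from HVC points in all 4 panels, and ENSTGUT00000008249 is the one whose entopallium levels (6.50 to 7.82) stand away from HVC.

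The 4 transcripts kept these differences in non-breeding birds, whose arrays are separate. In those birds the differences were 6.25 ± 0.07 for XM_002187042, 5.42 ± 0.13 for XR_054907, -5.39 ± 0.08 for XM_002193873 and -5.35 ± 0.08 for ENSTGUT00000008249 (SE, adjusted p of at most 5.74e-22). For none of the 4 did the tissue difference change with season by a call (differences between seasons of -0.07 to 0.04).

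Of the transcripts that differed by 2 or more, the 157 that were higher in the cerebellum had a median level of 9.41 there and of 6.37 in HVC. The 241 that were lower had a median of 6.69 in the cerebellum and of 9.45 in HVC. The levels of cerebellum and HVC overlapped for 7 of the 398, compared with 19111 of all 26061 transcripts. Since the 398 were picked for a large difference in these same arrays, this low count is largely set by the selection. By kind of identifier, zebra finch Ensembl transcripts were called in 26.6% of 11936 cases, predicted RefSeq mRNAs (XM) in 26.3% of 10482 and predicted RefSeq non-coding RNAs (XR) in 27.2% of 895. The share was 34.9% for 1683 transcripts with an Ensembl identifier of another species, 32.2% for 892 with AK identifiers and 35.8% for 173 with NM or NR identifiers. Of all transcripts 27.3% were called. Median levels also differed by kind, with 7.81 for other species, 8.02 for AK, 7.41 for zebra finch Ensembl, 7.08 for XM, 7.34 for XR and 7.13 for NM or NR. The called share was 19.3% in the lowest and 38.6% in the highest quartile of mean level. The shares by kind were not tested, nor was the part of level in them.

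The direction of the differences depended on the level of the transcript. Among the quartile of transcripts with the lowest mean level over the 24 arrays, 879 were called higher and 376 lower in the cerebellum, and the median difference of the quartile was 0.18. Among the quartile with the highest mean level, 852 were called higher and 1665 lower, and the median difference was -0.13. After quantile normalisation, which gives all 24 arrays the same distribution, the lowest quartile held 523 higher and 516 lower calls, and the highest quartile 1179 higher and 1239 lower calls. The excess of higher calls at low levels and of lower calls at high levels was not seen after it. Since the method makes the distributions alike, it removes such an excess largely by design, and no conclusion is drawn from this. The totals were similar, 3312 higher and 3469 lower after quantile normalisation. Levels of different transcripts also depend on how well their probes bind, so the quartiles order signals and not RNA amounts. Of the 398 transcripts that differed by 2 or more, 152 of the higher and 216 of the lower ones still passed 2 after it.

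**Figure D2:**
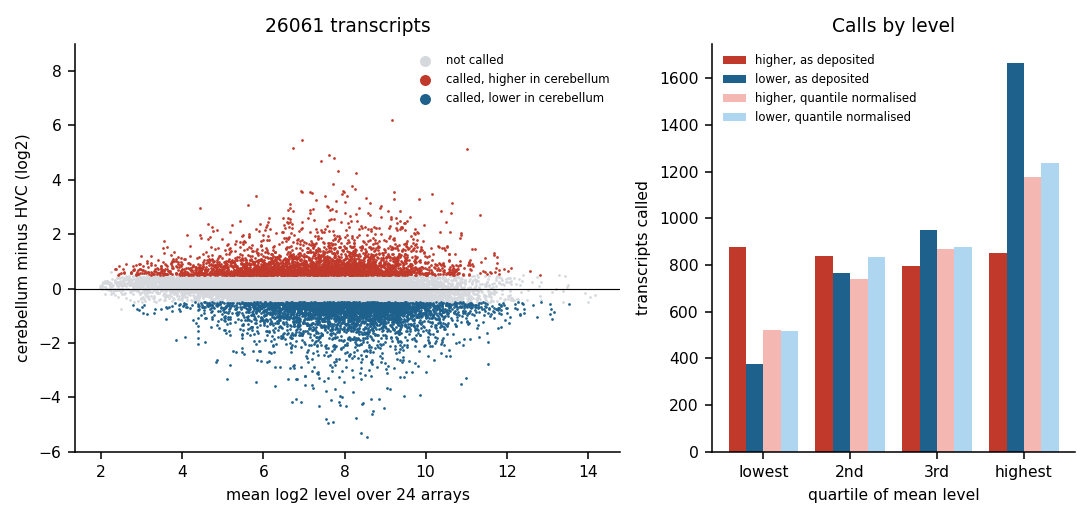
Left, cerebellum minus HVC on the log2 scale (y axis) against the mean log2 level over the 24 breeding arrays (x axis), 1 point per transcript, with called transcripts coloured by direction. Right, the number of called transcripts (y axis) by quartile of mean level (x axis), as deposited and after quantile normalisation; the 879 higher against 376 lower calls of the lowest quartile become 523 against 516.

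The distributions themselves differed between the tissues. The 1st percentile of the log2 levels, a measure of the background end of an array, was 3.011 ± 0.051 in the cerebellum and 2.796 ± 0.028 in HVC (SD, n = 12 arrays each), with no overlap (difference 0.214, two-sided permutation test, p = 2e-05, adjusted over 5 array measures p = 5e-05). The interquartile range was 2.188 ± 0.045 in the cerebellum and 2.351 ± 0.029 in HVC (SD), again with no overlap (difference -0.163, permutation p = 1e-05, the smallest that 100000 permutations can give, adjusted p = 5e-05). The array medians were 7.332 ± 0.042 in the cerebellum and 7.326 ± 0.019 in HVC (SD), a difference of 0.006 (permutation p = 0.662, adjusted p = 0.817). Non-breeding birds showed the same order, with differences of 0.226 in the 1st percentile and -0.182 in the interquartile range and no overlap in either. Cerebellum arrays therefore had a raised low end and a narrower range. Every tissue lies on arrays of its own, and in the sample list the cerebellum arrays form a block apart from HVC and entopallium. Whether these features came from the tissue or from how and when its arrays were run cannot be told apart. The same limit covers every difference between the cerebellum and another tissue given here, in both seasons.

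Cerebellum arrays of a group also resembled each other less. The mean correlation of an array with the others of its group was 0.978 to 0.988 in the breeding cerebellum and 0.989 to 0.993 in breeding HVC. The median SD of a transcript within sex was 0.160 in the cerebellum and 0.113 in HVC, and it was larger in the cerebellum for 75.5% of transcripts. Breeding cerebellum male replicate 6 had the lowest correlation with its group, 0.9777. Without that array 7162 transcripts were called, compared with 7121 with all arrays.

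**Figure D3:**
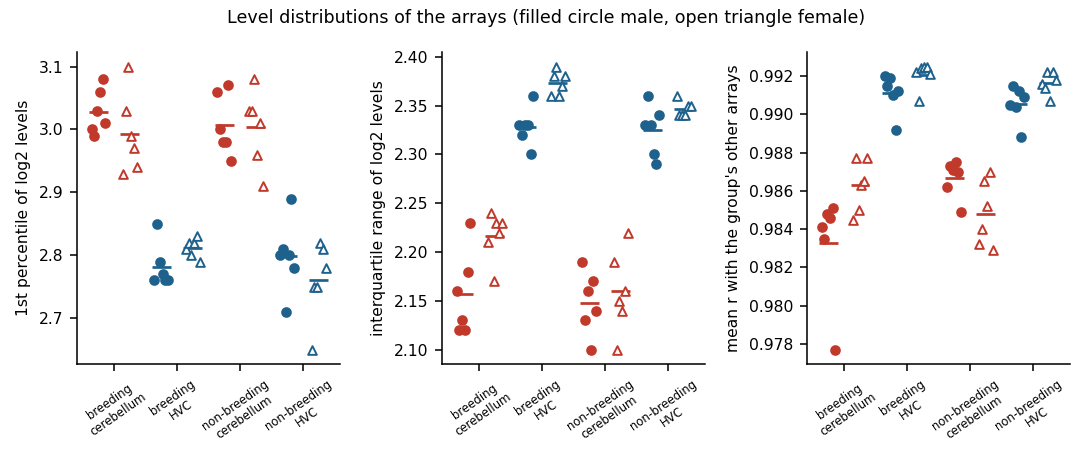
The 1st percentile and the interquartile range of the log2 levels, and the mean correlation with the other arrays of the group (y axes), for cerebellum and HVC arrays of breeding and non-breeding canaries (x axis); each point is 1 array and each bar a group mean. The 1st percentile of cerebellum arrays (2.93 to 3.10 in breeding birds) lies above that of HVC arrays (2.76 to 2.85), and the interquartile range lies below.

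The entopallium was used as a second area to set both tissues against. In a principal component analysis of the 36 breeding arrays of cerebellum, HVC and entopallium, the first component held 53.7% of the variance and gave the cerebellum arrays scores of 61.0 to 68.2, against -33.5 to -26.8 for HVC and -38.5 to -26.7 for the entopallium. The second component, with 19.5%, placed the cerebellum between -4.5 and 2.0 and separated HVC, at 31.4 to 35.6, from the entopallium, at -36.7 to -28.2. To classify the called transcripts without reusing arrays, the non-breeding birds were taken. Tissue differences were similar in both seasons, so a called transcript tends to differ from the entopallium in cerebellum, HVC or both. It need not meet either call, because a difference can be made up of 2 parts below the fold minimum. The shares below are therefore largely set by the selection and are not read as an enrichment over all transcripts. In them the cerebellum differed from the entopallium by a call for 7594 transcripts (29.1%) and HVC for 3487 (13.4%). Of the 3366 transcripts called higher in the breeding cerebellum than in breeding HVC, 66.0% were also called higher in the non-breeding cerebellum than in the non-breeding entopallium, a call made for 12.7% of all transcripts. Of the 3755 called lower, 67.4% were also called lower in the cerebellum than in the entopallium, compared with 16.4% of all transcripts. Scaling to total intensity made 59.3% of the calls between cerebellum and entopallium higher in the cerebellum, compared with 43.6% as deposited. HVC itself was below the non-breeding entopallium for 14.6% of the transcripts higher in the cerebellum (6.96% of all transcripts) and above it for 25.5% of those lower in the cerebellum (6.42% of all).

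Among the differences of 2 or more, both tissues could stand apart from the entopallium. Of the 241 transcripts lower in the cerebellum by 2 or more, 158 were called higher in HVC than in entopallium in the non-breeding birds (6.42% of all transcripts). In cerebellum, 212 were called lower than in entopallium (16.4% of all). Of the 157 higher by 2 or more, 49 were called lower in HVC than in entopallium (6.96% of all transcripts). In cerebellum, 150 were called higher than in entopallium (12.7% of all). Both kinds of call use the same non-breeding entopallium arrays and are not independent. A transcript can meet both calls, as ENSTGUT00000008249 did. These shares were not tested against each other. The difference between cerebellum and HVC is made up of the differences of both tissues from the entopallium. Transcripts picked for a large difference, which was similar in both seasons, must therefore stand apart from the entopallium in cerebellum, HVC or both. High shares are thus largely set by the selection, and no enrichment over all transcripts is read from them.

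The tissue difference was similar in the sexes. Within males 7340 transcripts were called (28.2%), 3517 higher (13.5%) and 3823 lower (14.7%) in the cerebellum, and within females 7315 (28.1%), 3476 higher (13.3%) and 3839 lower (14.7%). Scaled to total intensity, 64.2% of the calls in males and 61.9% of those in females were higher in the cerebellum, compared with 47.9% and 47.5% as deposited. Over all 26061 transcripts the differences of males and females, which come from separate arrays, had a Pearson's r of 0.93, a correlation across transcripts that share arrays and are not independent. Of the transcripts called higher, 2562 were shared, 72.8% of the male and 73.7% of the female list. Of those called lower, 3025 were shared, 79.1% of the male and 78.8% of the female list. Another 4 transcripts were called higher in males and lower in females.

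A test of the difference between the sexes called 549 transcripts (2.11%), 231 with a more positive tissue difference in males (0.886%) and 318 with a more negative one (1.22%). For 469 of the 549 (85.4%) the difference between males and females was larger in HVC than in the cerebellum. This share was 84.7% after scaling to total intensity and 82.6% after quantile normalisation. The same share over all transcripts was not computed. Over all transcripts the median absolute sex difference was 0.11 in HVC and 0.098 in the cerebellum. Within the tissues, males and females differed by a call in 143 transcripts in the cerebellum (0.549%), 114 higher and 29 lower in males, compared with 867 in HVC (3.33%), 546 higher and 321 lower in males. The breeding entopallium had 847 sex differences (3.25%), close to the count in HVC. By their label numbers the females were the same birds in both areas, so the 2 counts are not independent. With the fold minimum alone, 333 transcripts in the cerebellum and 973 in HVC differed by 0.5 or more between the sexes. The median SE of a sex difference was 0.090 in the cerebellum and 0.064 in HVC, and the part of this larger error in the smaller count was not tested. Of the 143 sex differences in the cerebellum, 82 were also called in HVC in the same direction, 57.3% of the cerebellum list and 9.46% of the HVC list, and 0 in the opposite direction. In non-breeding birds, of which neither sex sang, males and females differed in 203 transcripts in the cerebellum (0.779%), in 441 in HVC (1.69%) and in 144 in the entopallium (0.553%). The difference between tissues in these counts was not tested as such. Leaving out breeding cerebellum male replicate 6 raised the 549 to 807.

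Since their identifiers carry no names, 4 transcripts with the smallest interaction p-values, 2 per direction, are given as examples, chosen after their values were seen. The smallest was that of ENSTGUT00000011862. In the cerebellum it had levels of 10.50 to 10.72 (median 10.67) in males and of 10.72 to 10.98 (median 10.87) in females. In HVC the levels were 11.16 to 11.36 (median 11.28) in males and 10.18 to 10.53 (median 10.43) in females. Males were above females in HVC with no overlap, and at or below them in the cerebellum. The tissue difference was -0.62 ± 0.06 in males and 0.46 ± 0.07 in females (SE), a difference between the sexes of -1.09 ± 0.09 (SE, limma, adjusted p = 1.08e-07).

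ENSTGUT00000008208 showed the same arrangement. Its cerebellum levels were 8.77 to 8.90 in males and 8.91 to 9.06 in females, and its HVC levels 9.45 to 9.63 in males and 8.72 to 8.92 in females. The tissue difference was more negative in males by 0.81 (log2 difference -0.81, SE 0.07, adjusted p = 1.95e-07). Among the 4 breeding groups of cerebellum and HVC, HVC males were above the other 3 without overlap in both transcripts. Males were above females without overlap in the breeding entopallium too. The levels there were 8.48 to 8.71 and 8.21 to 8.35 for ENSTGUT00000008208, and 10.80 to 11.20 and 10.38 to 10.77 for ENSTGUT00000011862. In non-breeding HVC females ENSTGUT00000008208 was at 9.33 to 9.70, which overlapped the breeding HVC males.

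In the positive direction, ENSTGUT00000006062 had cerebellum levels of 8.50 to 8.65 in males and 8.36 to 8.51 in females, and HVC levels of 9.01 to 9.43 in males and 9.62 to 9.90 in females. The sexes overlapped in the cerebellum and were apart in HVC, and in the breeding entopallium they were apart as well, at 8.15 to 8.54 in males and 8.67 to 8.97 in females. The interaction was 0.66 ± 0.09 (SE, adjusted p = 2.48e-04). ENSBTAT00000022007 moved in both tissues in opposite directions. Its cerebellum levels were 8.70 to 9.19 in males and 8.37 to 8.62 in females, while its HVC levels were 7.65 to 7.94 in males and 8.07 to 8.22 in females (interaction 0.79 ± 0.11, SE, adjusted p = 2.58e-04).

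The non-breeding canaries gave a tissue difference from arrays that the breeding comparison did not use. In them 7665 transcripts were called (29.4%), 3486 higher (13.4%) and 4179 lower (16.0%) in the cerebellum, and 410 (1.57%) differed by 2 or more. After scaling to total intensity 62.7% of the calls were higher in the cerebellum, compared with 45.5% as deposited. Of the calls, 2813 higher ones were shared (83.6% of the breeding and 80.7% of the non-breeding list), as were 3365 lower ones (89.6% and 80.5% of those lists), and no transcript was called in opposite directions. Across all transcripts Pearson's r of the 2 sets of differences was 0.969. Of the transcripts that differed by 2 or more in non-breeding birds, all 164 higher and 245 of the 246 lower ones were called in the same direction in breeding birds, where their median differences were 2.44 and -2.48, close to 2.43 and -2.54 in the non-breeding birds.

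**Figure D4:**
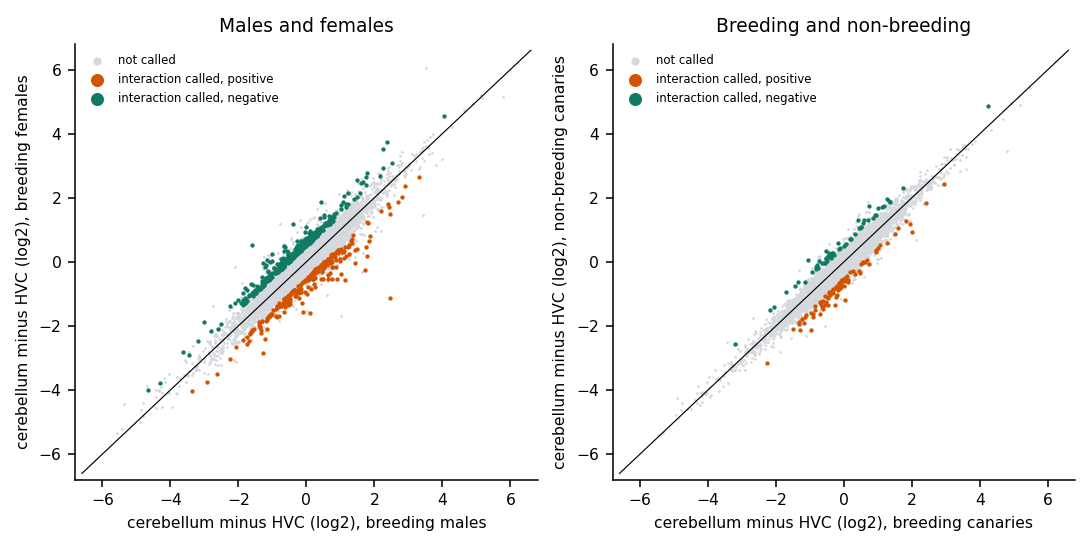
Cerebellum minus HVC on the log2 scale for each of 26061 transcripts, in breeding males (x axis) and breeding females (y axis) on the left, and in breeding (x axis) and non-breeding canaries (y axis) on the right; the line marks equal differences. Coloured points are the 549 transcripts called for a difference between the sexes and the 143 called for a difference between the seasons, which lie at least 0.5 above or below the line.

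The tissue difference changed with season for 143 transcripts (0.549%), being more positive in breeding birds for 86 (0.330%) and more negative for 57 (0.219%). Of the 86, the seasonal change was larger in the cerebellum for 38 and in HVC for 48. Of the 57, it was larger in the cerebellum for 25 and in HVC for 32. Median changes, breeding minus non-breeding, were 0.28 in the cerebellum and -0.33 in HVC for the 86, and -0.28 and 0.33 for the 57. Both tissues thus took part in these calls. Tested within each sex, a comparison chosen once the first results were known, the seasonal change of the tissue difference was called for 2 transcripts in males (0.00767%) and for 719 in females (2.76%), and the change itself differed between males and females for 234 (0.898%). The 2 calls in males became 20 when breeding cerebellum male replicate 6 was left out, and ranged between 0 and 20 over all single omissions, whereas the 719 in females ranged between 662 and 782.

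Within single tissues, breeding and non-breeding females differed in 133 transcripts in the cerebellum (0.510%), 69 higher and 64 lower in breeding birds, and in 670 in HVC (2.57%), 286 higher and 384 lower. Breeding and non-breeding males differed in 45 transcripts in the cerebellum (0.173%), 28 higher and 17 lower, and in 7 in HVC (0.0269%), 2 higher and 5 lower. Without breeding cerebellum male replicate 6 the 45 became 72, and without breeding HVC male replicates 3 and 4 in turn the 7 became 11 and 12. Of these 4 combinations of tissue and sex, HVC of females had the most calls between the seasons, and the entopallium was not compared between seasons. Males sang only in the breeding season and females in neither. For male HVC the paper reports a far larger number of genes that differ between these groups. It used a probe-level test with the same fold minimum and states that such a test can be more sensitive. The low count of male HVC here therefore does not show that it was unchanged between the seasons. The reason for the gap between the counts was not tested.

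The transcript with the smallest seasonal p-value, again chosen after its values were seen, shows this group apart. The cerebellum levels of ENSTGUT00000004842 were 10.97 to 11.17 in breeding males and 10.96 to 11.25 in breeding females, against 10.92 to 11.12 in non-breeding males and 10.80 to 11.06 in non-breeding females. In HVC they were 11.55 to 11.68 in breeding males and 10.73 to 11.05 in breeding females, against 11.53 to 11.78 in non-breeding males and 11.70 to 11.78 in non-breeding females. Breeding females were the only one of the 4 HVC groups that overlapped the cerebellum levels, and 4 of these 6 arrays were below every breeding cerebellum array. The tissue difference was -0.16 ± 0.08 in breeding birds and -0.75 ± 0.04 in non-breeding birds (SE), a seasonal change of 0.58 ± 0.05 (adjusted p = 2.87e-10). In females alone the change was 1.04 ± 0.07 (adjusted p = 9.31e-14) and in males 0.13 ± 0.07 (adjusted p = 0.696), and the change differed between the sexes (-0.91 ± 0.10, adjusted p = 5.02e-07). The entopallium of breeding females, by the label numbers the same birds as in HVC, was low too. Its levels were 10.58 to 10.67, compared with 10.87 to 11.30 in non-breeding females.

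ENSTGUT00000011862, already described for the sexes, was also among the 2 positive seasonal changes with the smallest p-values, at 0.67 ± 0.08 (SE, adjusted p = 1.62e-06). Its HVC level in non-breeding females, 11.15 to 11.50, did not overlap the 10.18 to 10.53 of breeding females, whereas non-breeding males, at 10.92 to 11.45, overlapped breeding males. The seasonal change of the tissue difference was 1.30 ± 0.12 in females (adjusted p = 3.17e-10) and 0.03 ± 0.12 in males (adjusted p = 0.987). In females both tissues changed, by -0.94 ± 0.08 in HVC (limma, adjusted p = 4.39e-11) and by 0.36 ± 0.08 in the cerebellum (adjusted p = 0.00408). Entopallium levels were 10.38 to 10.77 in breeding females and 10.72 to 10.96 in non-breeding females.

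Of the negative changes, ENSTGUT00000012320 was higher in the cerebellum by 0.60 ± 0.07 in breeding and by 1.30 ± 0.05 in non-breeding birds (SE, seasonal change -0.70 ± 0.08, adjusted p = 6.25e-08). Its HVC levels were 10.49 to 10.63 in breeding females, above the 9.76 to 9.96 of non-breeding females and the 9.71 to 10.07 of breeding males. Breeding minus non-breeding, its level in females changed by 0.76 ± 0.08 in HVC (limma, adjusted p = 7.08e-10) and by -0.23 ± 0.08 in the cerebellum (adjusted p = 0.0545). In males it changed by 0.03 ± 0.08 in HVC (adjusted p = 0.976) and by -0.38 ± 0.08 in the cerebellum (adjusted p = 0.00526). The seasonal change of its tissue difference was -0.98 ± 0.11 in females (adjusted p = 4.58e-08) and -0.41 ± 0.11 in males (adjusted p = 0.154). XM_002197468 was higher in the cerebellum by 0.94 ± 0.07 in breeding and 1.47 ± 0.05 in non-breeding birds (SE, seasonal change -0.53 ± 0.07, adjusted p = 1.02e-05). In the cerebellum it had 10.15 to 10.73 in breeding females and 10.71 to 10.98 in non-breeding females, and in HVC 9.67 to 9.81 in breeding females and 9.13 to 9.42 in non-breeding females. Without breeding cerebellum female replicate 3, its change fell just short of the fold minimum at -0.50.

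**Figure D5:**
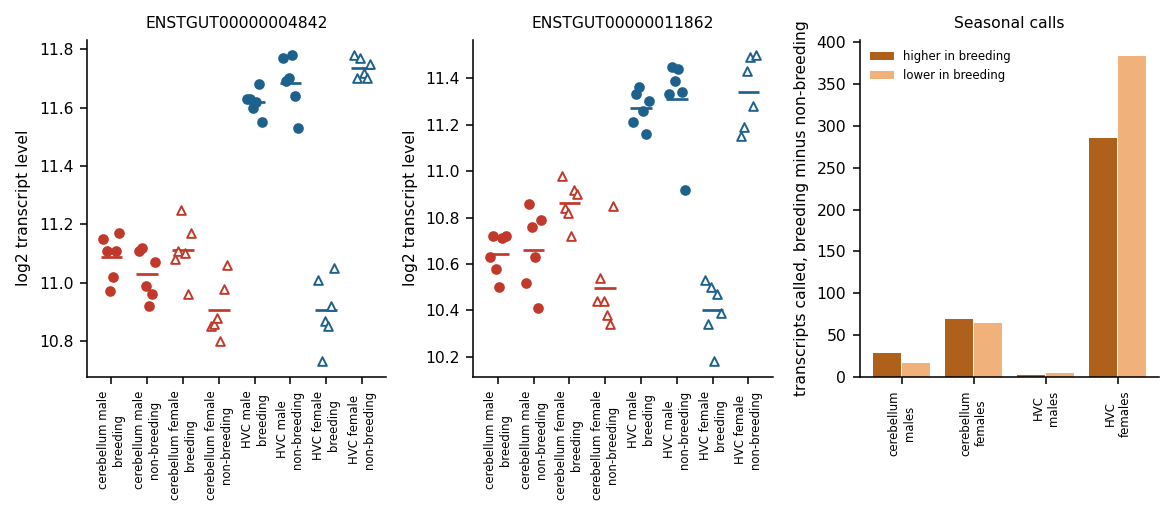
Log2 levels (y axes) of ENSTGUT00000004842 and ENSTGUT00000011862 in cerebellum and HVC of breeding and non-breeding males and females (x axis; each point 1 array, each bar a group mean of 6), and the number of transcripts called between breeding and non-breeding birds (y axis) by tissue and sex. Breeding HVC females lie below the other HVC groups in both transcripts. HVC females have 286 higher and 384 lower calls against 2 and 5 in HVC males. A low count does not show that a tissue was unchanged between the seasons.

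A last transcript is given because its levels fell into separate ranges within the groups, and it was chosen for that. XM_002199595 had the largest SD within sex of all transcripts in the breeding cerebellum, 1.89, and also in breeding HVC, 1.41. Its cerebellum levels were 8.27, 7.21, 8.02, 11.68, 7.85 and 12.71 in males and 11.46, 11.76, 11.53, 11.41, 11.61 and 8.25 in females. No cerebellum array lay between 8.27 and 11.41. Its HVC levels were 4.51, 5.14, 5.91, 5.06, 5.98 and 7.98 in males and 4.86, 3.95, 4.19, 4.49, 4.13 and 8.10 in females, so 1 array of each sex stood above the rest and overlapped the lower range of the cerebellum. Breeding entopallium arrays fell into 2 ranges as well, 7.08 to 7.72 in 8 birds and 10.23 to 10.91 in 4. In non-breeding birds the levels were 6.92 to 9.21 in the cerebellum and 3.20 to 5.59 in HVC. The tissue difference of 4.79 ± 0.66 (SE, adjusted p = 3.95e-07) was called in both sexes taken alone (3.53 in males and 6.05 in females) and ranged between 4.52 and 5.06 when single arrays were left out, but the levels of the 2 tissues overlapped. An SD within sex above 1 was found for 52 transcripts in the breeding cerebellum and 22 in breeding HVC, 13 of them in both.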

How the data were processed

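RNA of 1 tissue per bird was labelled by the authors and hybridised to a custom Affymetrix exon array of zebra finch probes. The authors deposited log2 transcript levels (26061 transcripts, 155 arrays, no missing value). Affymetrix Expression Console is named in the submitters' notes, with background correction and normalisation choices not given in the sources used here. Low levels approach background, which compresses ratios. The number of arrays limits the precision.

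Groups follow the sample labels. Levels were used as deposited in limma 3.58.1 (R 4.3.3; lmFit and eBayes with sex as covariate), with Benjamini-Hochberg adjustment over all transcripts and a fold minimum of 0.5 (log2) as in the study's methods. The probe-level test of those methods could not be run on transcript levels. Interactions were fitted with tissue by sex or tissue by season terms. Array measures were compared by 100000 permutations of arrays. The fit was tested on simulated data. Of 175 pairs of arrays within groups, 0 were identical. Labels number the arrays as biological replicates. The 4 transcripts of the tissue comparison were named by a rule, the 2 largest positive and 2 largest negative differences among called transcripts without overlap, and all others were chosen after their values were seen. The comparison and the lists were chosen with earlier results of these data known. Planned cell type marker lists and pathway lists were not used, since 0 of 17915 reference genes matched, and no sequence is printed.

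Alternatives were scaling to total intensity, quantile normalisation, a filter on the 25% least intense transcripts, either criterion alone or a fold minimum of 1, array weights, trend and robust options, a replicate block, no sex covariate, 1 model of 18 canary groups, and omission of each array.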

Additional observations from a re-analysis of the deposited data

Results flagged for a closer look

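The tissue difference differed between the sexes for 549 transcripts and between the seasons for 143, and its seasonal change differed between males and females for 234, each by a test of the difference itself. Among the transcripts named above, the differences between males and females were 0.66 for ENSTGUT00000006062, 0.79 for ENSBTAT00000022007, -1.09 for ENSTGUT00000011862 and -0.81 for ENSTGUT00000008208. Those between breeding and non-breeding birds were 0.58 for ENSTGUT00000004842, 0.67 for ENSTGUT00000011862, -0.70 for ENSTGUT00000012320 and -0.53 for XM_002197468.

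Single arrays stood apart from the other 5 of their group, by Dixon's test, in 15 of 100 groups examined. Most of these groups were of transcripts picked by their values, and some array measures describe the same array. The count can therefore not be set against a chance rate. Breeding cerebellum male replicate 6 had a mean correlation of 0.9777 with its group (next lowest 0.9835) and a median absolute deviation from the group mean of 0.231 (next 0.136). Breeding HVC female replicate 2 had a correlation of 0.9907 (next 0.9921) and a deviation of 0.115 (next 0.085), and breeding HVC male replicate 5 a correlation of 0.9892 (next 0.991). The 1st percentile of breeding HVC male replicate 2 was 2.85 (next 2.79).

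For XM_002199595, breeding cerebellum female replicate 6 was low at 8.25 (next 11.41) and breeding HVC female replicate 6 was high at 8.10 (next 4.86). For XR_054907, non-breeding cerebellum female replicate 6 was at 10.87 (next 9.48), breeding HVC male replicate 2 at 4.54 (next 3.97) and non-breeding HVC male replicate 1 at 4.53 (next 4.20). Smaller gaps were found for XM_002187042 in non-breeding HVC female replicate 5 (6.73, next 6.26), ENSBTAT00000022007 in breeding cerebellum female replicate 3 (8.62, next 8.42), ENSTGUT00000011862 in non-breeding HVC male replicate 6 (10.92, next 11.33) and ENSTGUT00000012320 in breeding HVC male replicate 3 (9.71, next 9.96).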

How the results depend on the processing

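No alternative turned the direction of a named transcript. Scaling to total intensity changed which direction held the majority of calls. In breeding birds 62.7% were then higher in the cerebellum, compared with 47.3% as deposited, and likewise in males, in females and in non-breeding birds. Its shift of 0.11 in breeding birds moved transcripts across the fold minimum. A shift of that size could not change the sign of a call as deposited, and 0 changed. With the adjusted p alone, 19249 transcripts passed in breeding birds, 16620 in males, 16829 in females and 19980 in non-breeding birds, and 1597 and 1851 for the differences between the sexes and between the seasons. With a fold minimum of 1 the counts were 2104, 2211, 2248, 2314, 44 and 6 in the same order. Array weights called 1048 transcripts for the difference between the sexes, compared with 549 without weights; the cause was not tested. Same-numbered arrays of the 2 tissues did not deviate together across the pairs (correlations of -0.154 to 0.079 in 12 breeding pairs, 0 of which were best with their own number, and of -0.225 to 0.285 in 12 non-breeding pairs, 3 of which were). All 3 were non-breeding males, replicates 1, 3 and 4, with correlations of 0.285, 0.244 and 0.176. Whether the numbers pair birds in that group was not tested. The numbers were not taken to pair the arrays in any group. With the replicate number as a block 7118 transcripts were called, 7358 in males, 7329 in females, 7669 in non-breeding birds, 477 between the sexes and 137 between the seasons. With an array left out, counts ranged between 7065 and 7188 in breeding birds, 465 and 807 between the sexes, 132 and 167 between the seasons, 0 and 20 for the seasonal change in males, and for breeding against non-breeding birds 31 and 72 in cerebellum males, 96 and 193 in cerebellum females and 5 and 12 in HVC males. The low end of the arrays limits the differences of weakly hybridised transcripts. The planned averages over gene lists were not run, since no identifier could be named.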
